A study of Mus musculus with 10 samples.

Results

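The genes described here are the interferon-induced Ifi200 genes of mouse chromosome 1. They were taken by name from a list of 10 (Ifi203, Ifi204, Ifi205, Ifi207, Ifi209, Ifi211, Ifi213, Mnda, Mndal and Aim2) out of the 22053 genes of the deposited table. Of these names, 9 had a row of their own. Mnda had none, and RefSeq (GRCm38.p6) lists Mnda as an older name of Ifi211, so the 9 rows account for all 10 names. The list was chosen by measured values, namely the FPKM of these same libraries in G799R against wild type, so the size and direction of that difference are given for the members as a description, with no test. The table holds 4 more genes of the cluster, Ifi202b, Ifi206, Ifi208 and Ifi214, which were not listed. They are reported beside the members.

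RNA-seq was made from mouse kidney glomeruli, the capillary tufts in which blood is filtered. There were 5 libraries of wild-type Col4a3 and 5 libraries with p.G799R in Col4a3, which encodes a type IV collagen chain of the glomerular basement membrane. The labels give no zygosity, age, sex, strain or way of isolating the glomeruli, name no treatment for either group, and do not state whether each library came from its own mouse. P-values thus reflect only how far these libraries spread, and that spread may be technical. Values are FPKM, fragment counts divided by transcript length and library total, so levels can be compared between genes. Sums over all genes ran from 320720 to 340875 FPKM per library. Absolute depth is unknown, and depth relative to wild-type library 1 was put at 0.856 to 1.19.

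Type I and type II interferons act through receptors, JAK kinases and STAT and IRF transcription factors on genes whose promoters hold short GAAA repeats, the interferon-stimulated response element, or a palindrome read by STAT dimers. The Ifi200 family is one set of such genes. Its proteins combine a pyrin domain, through which they bind one another or adaptor proteins, with a HIN domain that binds DNA. Some lack one of these domains. AIM2 is known as the cytosolic receptor for double-stranded DNA that recruits ASC and caspase-1 into an inflammasome. The mouse cluster holds many near copies and is known to differ between mouse strains.

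On GRCm38 (GENCODE M21) the 13 genes lie on chromosome 1 between 173350879 and 174031810, a stretch of 680.9 kb, 90.6 Mb from Col4a3 on the same chromosome. Aim2 and Ifi209 are on the plus strand, and the other listed members are on the minus strand. Mndal (173849126 to 173942491) spans Ifi211 (173896345 to 173913046) and overlaps Ifi203 (173920407 to 173942672) on the same strand, with 37 exon bases shared by Mndal and Ifi203 and none by Mndal and Ifi211. Aim2 overlaps Cadm3 on the other strand, and Ifi209 overlaps Gm44339. Whether the counting used strand is not given in the sources used here. Near copies limit how reads could be assigned. Of all 75-base words in the transcripts of Ifi211, 63.6% also occur in other family genes, 40.6% in Ifi205. The share was 23.1% for Ifi209, 16.6% for Ifi205, 13.2% for Ifi204, 9.94% for Mndal, 8.07% for Ifi213, 1.87% for Ifi203, 1% for Ifi207 and 0% for Aim2. The values of Ifi211, Ifi209 and Ifi205 are uncertain to that extent.

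Promoters are shown first because 6 of the 9 members hold the same short element before a start site, which the choice of members did not use. The window from 250 bases before to 50 bases after each RefSeq start (GRCm38.p6) was searched on both strands for GAAANNGAAA, a core of the interferon-stimulated response element, and for TTCNNNGAA, the STAT palindrome. No family promoter held both. Ifi204 had no promoter entry. GAAANNGAAA was found in 9 of the 12 family genes that had one, against 3.99% of 27025 genes (3.44% of 32851 promoters). TTCNNNGAA was found in 1 of 12, Ifi202b, against 9.55% of genes. The stretches below are 60 bases long, each on its gene's own strand, with the bases of the element in capitals. They are grouped by likeness.
Ifi203 (second of its promoters): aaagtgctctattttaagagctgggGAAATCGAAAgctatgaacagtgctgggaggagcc
Mndal (first of its promoters): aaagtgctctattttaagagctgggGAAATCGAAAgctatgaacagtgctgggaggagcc
Ifi207: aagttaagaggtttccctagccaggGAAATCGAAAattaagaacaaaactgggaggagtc
Ifi205: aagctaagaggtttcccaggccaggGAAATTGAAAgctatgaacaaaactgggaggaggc
Ifi211: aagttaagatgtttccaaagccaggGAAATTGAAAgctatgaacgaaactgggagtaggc
Ifi213: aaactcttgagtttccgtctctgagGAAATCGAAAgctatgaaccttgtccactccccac
Ifi208: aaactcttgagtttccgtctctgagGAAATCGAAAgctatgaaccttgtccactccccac
Ifi214: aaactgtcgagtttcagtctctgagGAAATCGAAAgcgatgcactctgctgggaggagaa
Ifi209: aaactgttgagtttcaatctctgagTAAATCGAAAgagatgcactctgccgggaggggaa

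The first base of the element lay at -35 in Ifi203, -36 in Mndal, -37 in Ifi211, -41 in Ifi207, -73 in Ifi213, -58 in Ifi208, -79 in Ifi214 and -134 in Ifi205, counted from the RefSeq start. The windows of Ifi203 and Mndal were identical in 60 of 60 bases, as were those of Ifi213 and Ifi208. Ifi206 differed from Ifi213 in a single position, at 59 of 60. Ifi211 matched Ifi205 in 54 of 60 bases, and Ifi207 matched Ifi205 in 52 of 60. Ifi209 had no match to the element, but its most alike stretch, also starting at -79, matched Ifi214 in 54 of 60 bases. Within the 10 element bases it carried 1 difference, G1T, where positions count from 1 at the 5′ end of the element and Ifi214 gives the first letter. Aim2 had no match, and its stretch most like any of these windows agreed in 27 of 60 bases. The unlisted Ifi202b was alike in this, with no match and 26 of 60 bases. The window searched for Aim2 (173420354 to 173420653) lies inside its GENCODE span, and the GENCODE start at 173350879 was not searched. The last 60 bases before the RefSeq start of Aim2 are shown for comparison.
Aim2: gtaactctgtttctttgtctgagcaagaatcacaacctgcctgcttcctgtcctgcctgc
Ifi203 has another annotated promoter without a match, and the second promoter of Mndal holds the element on the other strand. Ifi205 holds a further match on the other strand, TTTCACTTTC, with its first base at 23 from the start. A match describes letters in this window and is no evidence of binding.

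In G799R glomeruli every listed gene stood above wild type in every library. On the log2(FPKM + 1) scale Mndal and Ifi204 had the largest differences, and Aim2, the DNA receptor, the smallest. That scale holds down low genes. By ratio of means Ifi205 was first at 42.1, over a wild-type mean of 0.0686 FPKM, followed by Mndal at 20.2, and Aim2 was again last. The difference in log2(FPKM + 1), G799R minus wild type, was 4.36 for Mndal, 3.29 for Ifi204, 2.45 for Ifi211, 2.31 for Ifi203, 2.27 for Ifi207, 1.84 for Ifi205, 1.76 for Ifi213, 1.12 for Ifi209 and 0.60 for Aim2. The median was 2.27, beside 0.17 over the 13117 tested genes (mean FPKM of 0.5 or more), whose differences ran from -5.06 to 4.65. Among all tested genes the difference of Mndal ranked 3, that of Ifi204 14 and that of Aim2 1592. All 9 members passed the filter, though Ifi205, Ifi209 and Ifi213 had wild-type means under 0.5 FPKM and passed only through the G799R libraries. With limma (adjusted p under 0.05) 9 of 9 were called higher, where the share of all tested genes called higher was 40.5%. Every G799R library was above every wild-type library for 9 of 9, against 26.1% of tested genes. Since the members were chosen on this contrast, nothing is read from either count.

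**Figure D1:**
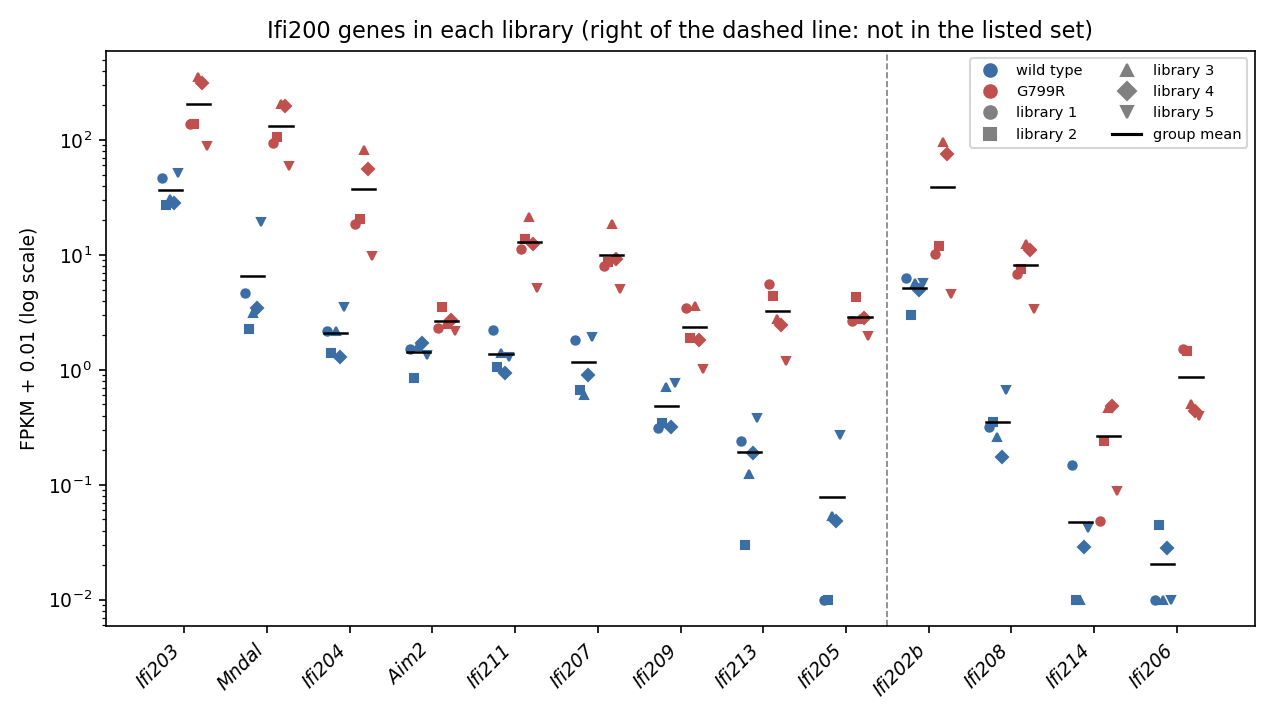
FPKM plus 0.01 (log axis) of the 9 listed members and, right of the dashed line, the 4 other family genes, in each of the 5 wild-type (blue) and 5 G799R (red) libraries; the marker shape gives the library number and black lines the group means. The groups of all 9 listed members are separate, from the wide gap of Ifi205 to the narrow one of Aim2, while those of Ifi202b and Ifi214 overlap.

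Ifi203 was the most abundant member. Its wild-type libraries 1 to 5 held 46.8, 27.4, 30.6, 28.1 and 51.3 FPKM, and its G799R libraries 1 to 5 held 138, 138, 354, 316 and 88.7 FPKM. The means were 36.9 ± 11.3 (SD, n = 5) and 207 ± 119 (SD, n = 5), a ratio of 5.62. The lowest G799R library, library 5, was 1.73 times the highest wild-type library.

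Mndal, named for its likeness to the human myeloid nuclear differentiation antigen, held 4.62, 2.26, 3.14, 3.44 and 19.4 FPKM in wild type. In G799R it held 93.8, 105, 205, 198 and 59.9 FPKM. The means were 6.57 ± 7.21 and 132 ± 65.4 (SD, n = 5 each), a ratio of 20.2. Wild-type library 5 was far above the other wild-type libraries, and the lowest G799R library was still 3.09 times it. In GENCODE M21 Mndal and Ifi203 overlap on one strand, so under that annotation fragments of one could have been counted for the other. The RefSeq promoter windows of Mndal lie elsewhere, between 173879909 and 173880437. A minus-strand gene starting there would overlap neither Ifi203 nor Ifi211. Which gene model the deposited table used is not given.

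Ifi204, a nuclear DNA-binding protein known from macrophages and related to human IFI16, stood at 2.15, 1.39, 2.18, 1.27 and 3.50 FPKM in wild type. The G799R libraries held 18.6, 20.5, 82.5, 55.7 and 9.79 FPKM. Means of 2.10 ± 0.888 and 37.4 ± 30.7 (SD, n = 5 each) gave a ratio of 17.8. The G799R libraries were themselves spread widely, with library 3 at 8.43 times library 5.

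Ifi211 and Ifi207 had means of 1.37 and 1.17 FPKM in wild type and of 12.8 and 9.93 FPKM in G799R. Ifi211 held 2.2, 1.05, 1.40, 0.927 and 1.29 FPKM in wild type and 11.3, 13.8, 21.5, 12.5 and 5.11 FPKM in G799R, a ratio of means of 9.36. Ifi207 held 1.81, 0.661, 0.596, 0.883 and 1.90 FPKM in wild type and 8.06, 8.62, 18.7, 9.20 and 5.02 FPKM in G799R, a ratio of 8.48. In both genes library 3 was the highest G799R library and library 5 the lowest, and neither gene's groups overlapped.

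Ifi205, Ifi213 and Ifi209 were under 1 FPKM in every wild-type library. Ifi205, known in mice for raising transcription of the ASC adaptor gene, was listed at 0 in wild-type libraries 1 and 2 and at 0.044, 0.038 and 0.261 FPKM in the others. In G799R it held 2.64, 4.26, 2.74, 2.84 and 1.97 FPKM. Ifi213, a pyrin-domain member also called Pydc4, held 0.232, 0.020, 0.115, 0.179 and 0.373 FPKM in wild type and 5.60, 4.35, 2.76, 2.44 and 1.19 FPKM in G799R. Ifi209, also called Pyhin1, held 0.303, 0.332, 0.697, 0.307 and 0.752 FPKM in wild type and 3.46, 1.87, 3.55, 1.80 and 1.01 FPKM in G799R. In G799R these 3 genes overlapped the range of Aim2, although in wild type all their libraries lay below it.

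Aim2 held 1.52, 0.838, 1.62, 1.71 and 1.35 FPKM in wild type and 2.28, 3.53, 2.52, 2.70 and 2.19 FPKM in G799R. The means were 1.41 ± 0.345 and 2.64 ± 0.535 (SD, n = 5 each), a ratio of 1.88. It differed least and was also the most even member within each group. Its lowest G799R library was 1.28 times its highest wild-type library. In bulk tissue, fewer cells of a type and less RNA per cell cannot be told apart, for any of these genes.

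Among the unlisted genes of the cluster, Ifi208 (Pydc3) was also higher in every G799R library than in any wild-type library. It held 0.307, 0.344, 0.248, 0.164 and 0.656 FPKM in wild type and 6.83, 7.53, 12.4, 11.1 and 3.36 FPKM in G799R. The difference was 2.69 in log2. Its wild-type mean of 0.344 FPKM was under the filter, so it was tested only through the G799R libraries and its p is not given. Ifi206 was listed at 0 in 3 wild-type libraries and reached 0.035 FPKM in the others. In G799R it held 1.5, 1.46, 0.491, 0.426 and 0.389 FPKM, and its mean was too low for the test. Ifi214 stayed under 0.5 FPKM in all 10 libraries, with overlapping groups.

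Ifi202b, a HIN protein without a pyrin domain known as an inhibitor of AIM2, had overlapping groups, as did Ifi214. It held 6.31, 3.01, 5.71, 4.99 and 5.69 FPKM in wild type and 10.2, 11.9, 95.3, 74.8 and 4.56 FPKM in G799R. The G799R value of library 5 lay below 4 of the 5 wild-type libraries, and libraries 3 and 4 lay far above all others. The difference was 1.91 ± 0.70 (SE) in log2, and limma gave an adjusted p of 0.034. The call rested on single libraries and on the scaling. It was lost in 10 of 19 alternatives, with adjusted p up to 0.087, among them leaving out wild-type library 2, 3, 4 or 5 or G799R library 3 or 4. No 75-base word of its transcript occurs in another family gene.

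**Figure D2:**
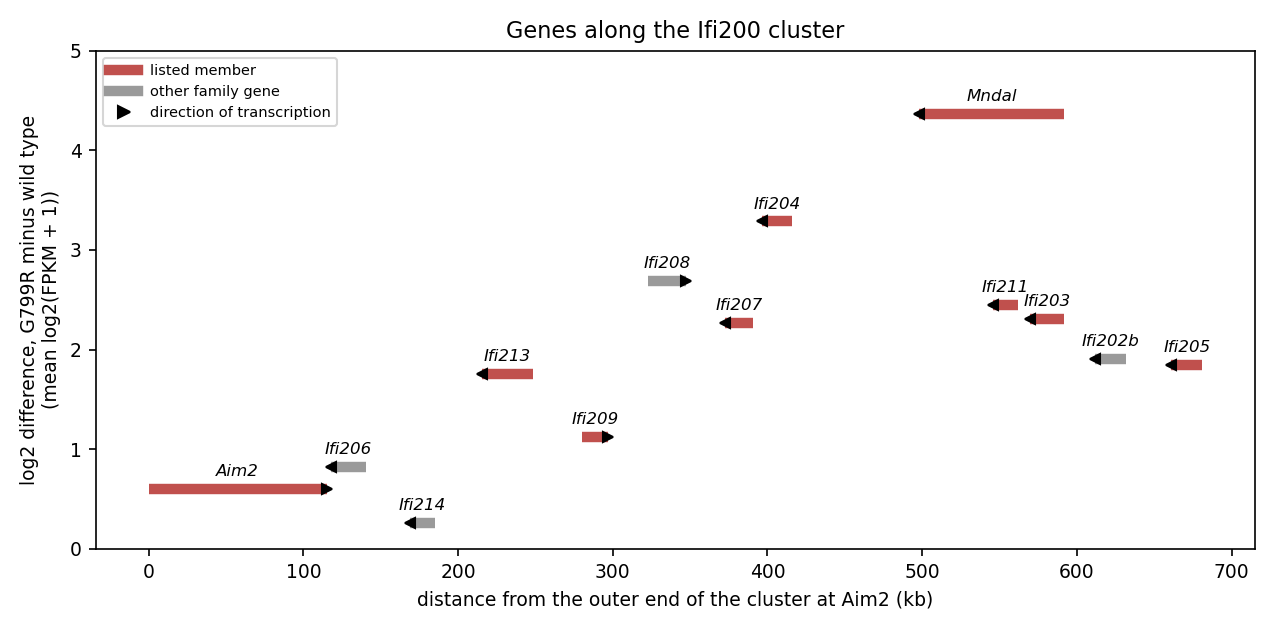
Position of each gene along the cluster (x axis, kb from the outer end at Aim2) against its difference in mean log2(FPKM + 1), G799R minus wild type (y axis); bars span the annotated gene, arrowheads give the direction of transcription, red marks listed members and grey the other family genes. Aim2, at one end, has the smallest difference of the listed members at 0.60, and Mndal the largest at 4.36.

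RNA levels of cell type markers differed between the groups. Podocyte markers summed to 2918 to 3517 FPKM in wild type and 4985 to 6728 FPKM in G799R, with 10 of 10 called higher by limma. Proximal tubule markers summed to 1850 to 3085 and 206.9 to 420.0 FPKM, with 10 of 10 called lower. Distal tubule and collecting duct markers summed to 1309 to 1873 and 172.2 to 508.7 FPKM, with 9 of 10 called lower. When each library was scaled to its podocyte, endothelial and mesangial markers together (glomerular marker scaling), the median of all tested genes went from 0.17 to -0.39. The calls went from 5308 higher and 2537 lower, the latter 19.3% of tested genes, to 572 (4.36%) and 7785 (59.4%). With median-of-ratios scaling they were 3057 and 3341. Under marker scaling 8 of 9 members were called higher, against 4.36% of tested genes, and 7 of 9 did not overlap, against 2.09%. As the members were chosen on this contrast, nothing is read from these counts either. Their differences ran from 0.17 for Aim2, which was no longer called, to 3.77 for Mndal. Aim2 then held means of 1.79 and 2.10 scaled FPKM, a ratio of 1.18. Aim2 and Ifi209 were the members whose groups overlapped.

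The large differences did not extend evenly to the genes around the cluster. Within 1 Mb on either side, 39 other annotated genes had a row, many of them olfactory receptor genes at or near 0, and 8 were tested. Of these, 3 were called higher (Pigm, Tagln2 and Slamf8) and 1 lower (Kcnj10), with a median log2 difference of 0.45. The count of 3 of 8 is near the 40.5% of all tested genes called higher. The call of Slamf8, which had a wild-type mean of 0.253 FPKM, was lost in 9 of 18 alternatives. With glomerular marker scaling 1 was called, Kcnj10, and the median was -0.07. The difference of Kcnj10, a potassium channel gene, was -1.58 ± 0.29 (SE), and limma gave an adjusted p of 0.00083. The largest of the rises, Pigm, was 0.66 ± 0.11 (SE), at a limma adjusted p of 0.00052. All 8 tested neighbours lie on the side of Aim2.

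The make-up of the family also differed between the groups. Ifi203 gave 75.1% ± 6.46 (SD, n = 5) of the summed FPKM of the 9 members in wild type, with libraries from 64.0% to 80.7%. In G799R it gave 49.8% ± 2.53, from 46.0% to 52.5%. Mndal went from 11.1% ± 7.35 to 33.0% ± 2.09 and Ifi204 from 4.18% ± 0.769 to 8.03% ± 2.55, while Aim2 went from 3.07% ± 1.21 to 0.808% ± 0.405. The summed level was 50.2 ± 19.5 FPKM in wild type and 411 ± 224 FPKM in G799R (SD, n = 5 each), a ratio of 8.18. These shares use ratios within a library, so a common scaling factor leaves them as they are.

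**Figure D3:**
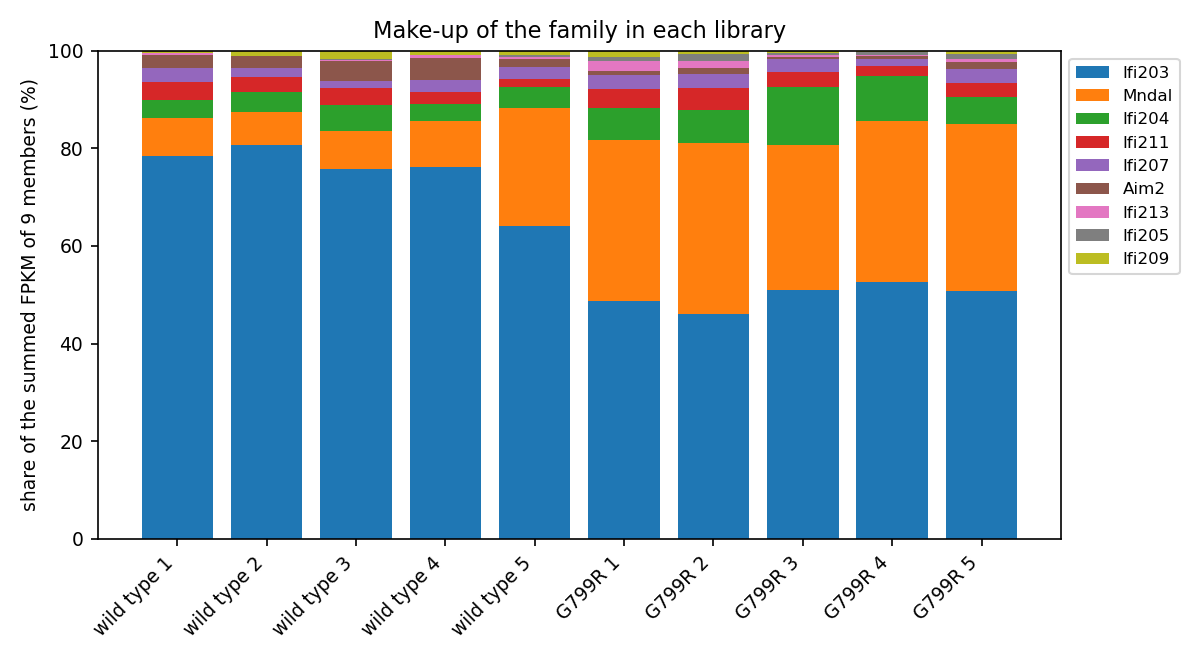
Share of each member in the summed FPKM of the 9 listed members (y axis, percent), 1 bar per library. Ifi203 (blue) takes 64.0% to 80.7% in the wild-type libraries and 46.0% to 52.5% in the G799R libraries, and Mndal (orange) makes up much of the difference.

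Ordered by mean level in wild type, the members ran Ifi203, Mndal, Ifi204, Aim2, Ifi211, Ifi207, Ifi209, Ifi213 and Ifi205. The wild-type libraries of Ifi203 lay above those of Mndal, and each later neighbour in that order overlapped the next. In G799R the order was Ifi203, Mndal, Ifi204, Ifi211, Ifi207, Ifi213, Ifi205, Aim2 and Ifi209, and every neighbour overlapped the next over libraries. Within each single G799R library Ifi203 was above Mndal. Aim2 moved from the fourth place to the eighth.

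The G799R libraries differed among themselves. Library 5 was the lowest G799R library for 9 of 9 members and for 12 of the 13 family genes. Library 3 was the highest for 6 of 9 members. Several patterns could be told by the order of libraries from high to low. Ifi204, Ifi207 and Mndal, with Ifi208 and Ifi202b, ran 3, 4, 2, 1, 5, and Ifi203 ran 3, 4, 1, 2, 5. Ifi205 and Aim2 ran 2, 4, 3, 1, 5. Ifi213 and the unlisted Ifi206 ran 1, 2, 3, 4, 5. Ifi209 and Ifi211 each had library 3 first and library 5 last.

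Genes with alike promoter windows had alike orders in some pairs and not in others. Ifi213 and Ifi206, alike in 59 of 60 bases, had the same order. Ifi213 and Ifi208 share a window of 60 identical bases, and Ifi213 was highest in library 1, at 5.60 FPKM against 2.76 FPKM in library 3. Ifi208 was highest in library 3, at 12.4 FPKM against 6.83 FPKM in library 1. Ifi203 and Mndal, with identical windows, had nearly the same order. Their genes also overlap as annotated in GENCODE M21. Whether the orders differ beyond error within a library was not tested.

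**Figure D4:**
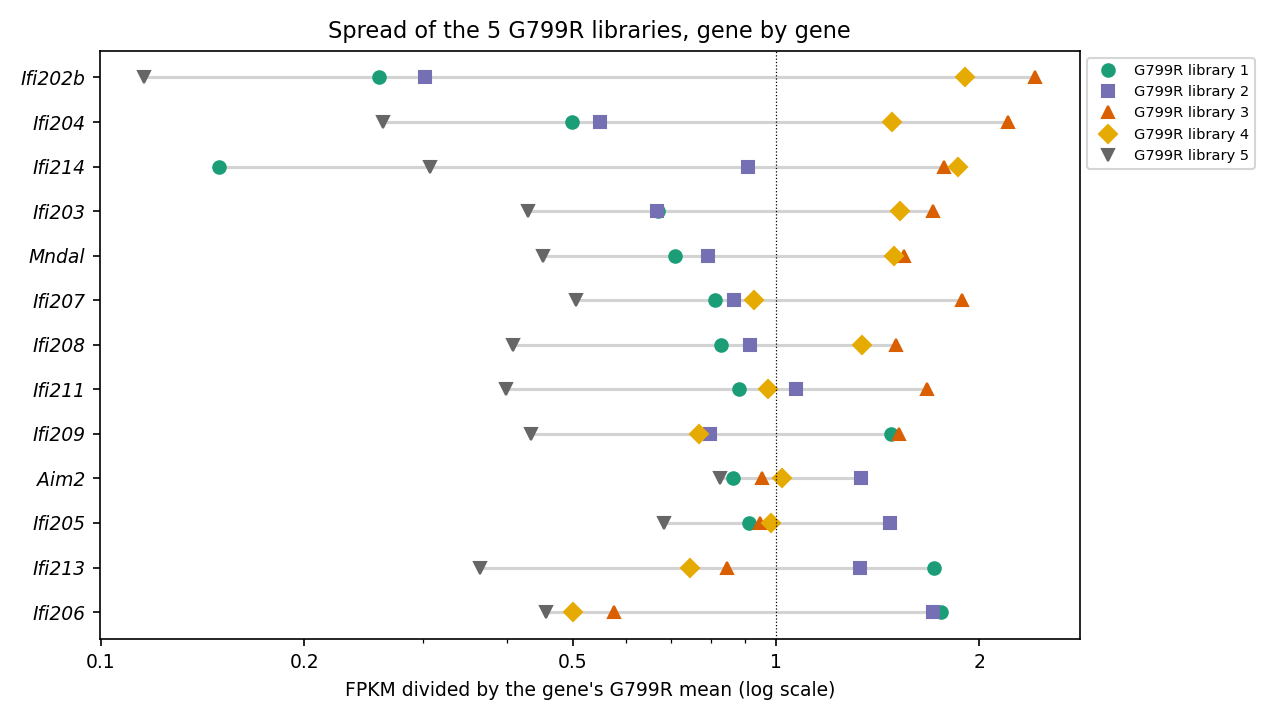
FPKM of each family gene in the 5 G799R libraries divided by that gene's G799R mean (log axis), with genes ordered by how far libraries 3 and 4 exceed libraries 1 and 2. Library 5 (grey triangles) is lowest in every gene but Ifi214, libraries 3 and 4 lead at the top of the plot (Ifi202b, Ifi204), and libraries 1 and 2 lead at the bottom (Ifi213, Ifi206).

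Other interferon-induced families show how far this spread is shared. The ratio of the highest to the lowest G799R library had a median of 3.73 over the 9 members, from 1.62 for Aim2 to 8.43 for Ifi204. It was 5.01 over 10 guanylate-binding protein genes and 14 over 11 IFIT and OAS genes, which encode antiviral proteins. Libraries 3 and 4 were both above the other G799R libraries for 4 of 9 members, 6 of 10 guanylate-binding protein genes and 11 of 11 IFIT and OAS genes, and for 977 of 13117 tested genes. Groups did not overlap for 9 of 10 guanylate-binding protein genes and 6 of 11 IFIT and OAS genes, against 26.1% of tested genes. The median log2 difference was 2.35 for the guanylate-binding proteins and 2.71 for IFIT and OAS, beside 2.27 for the members. With libraries 3 and 4 left out, the differences of the members ran from 0.60 (Aim2) to 3.86 (Mndal), and Ifi204 went from 3.29 to 2.46.

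The wild-type libraries also differed among themselves, and their replicate numbers need not match those of the G799R libraries. In the deposited table wild-type library 5 and G799R library 3 carry the same column number, whose meaning is not given. Wild-type library 5 was the highest wild-type library for 7 of 9 members, the exceptions being Ifi211 (library 1) and Aim2 (library 4). It was also the highest for 10 of 11 IFIT and OAS genes, for 5 of 10 guanylate-binding protein genes (library 1 for 4), and for 2218 of 13117 tested genes.

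Over the 10 libraries, each taken as its deviation from the group mean, 11990 other genes (mean FPKM of 1 or more) were ranked by Pearson r with the average deviation of the members. The first 10 were Oasl2 (r = 0.965), Rtp4 (0.959), Irf9 (0.952), Slfn2 (0.949), Gas6 (0.944), Ifit1 (0.943), Oas1a (0.942), Oas2 (0.942), Parp14 (0.942) and Rnf31 (0.941). Without the 2 libraries farthest from the median, G799R libraries 3 and 5, r was 0.910 for Oasl2, 0.920 for Irf9 and 0.789 for Oas2. Of the named genes Gas6 then ranked 1 and Irf9 5, and the others ranked from 12 (Slfn2) to 200 (Oas2). Which genes come first thus rests partly on these 2 libraries. These values describe 10 libraries that differ in depth, and carry no test. Among the members, Ifi207 (r = 0.884) and Ifi203 (0.880) followed the mean of the others most closely. Aim2 (0.258), Ifi213 (0.394) and Ifi205 (0.498) followed it least. This order rests partly on G799R libraries 3 and 5. Without them Mndal was first, going from 0.766 to 0.865, ahead of Ifi207 (0.764) and Ifi203 (0.734). Ifi211 then went from 0.826 to 0.356, Ifi209 from 0.647 to 0.036 and Ifi213 to -0.02.

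Genes that act with Aim2 in inflammasomes were read against the 40.5% and 19.3% of all tested genes called higher and lower, 4.36% and 59.4% after glomerular marker scaling. Of 17 genes on the list, 14 were tested, and limma called 8 higher and 2 lower (4 and 3 with glomerular marker scaling), with a median log2 difference of 0.55. Gsdmd, which encodes the pore-forming gasdermin D, held 8.71 ± 1.54 FPKM in wild type and 21.6 ± 4.46 FPKM in G799R (SD, n = 5 each), a log2 difference of 1.21 ± 0.14 (SE) and a limma adjusted p of 4.3e-05. Naip2 (0.82) and Nlrp1b (0.67) also rose, the latter from a wild-type mean of 0.348 FPKM, under the filter, so that it was tested only through the G799R libraries. So did Casp8 (0.62), which was at -0.01 and not called after glomerular marker scaling. Pycard, the gene of the adaptor ASC, and Casp1 are given for their role and were picked after their values were seen. Pycard went from 2.14 ± 0.610 to 3.18 ± 1.29 FPKM and was not called, with a limma adjusted p of 0.14. Casp1 went from 1.25 ± 0.455 to 3.02 ± 1.01 FPKM, with a limma adjusted p of 0.0041. The 2 genes called lower were Gsdme and Ninj1, the latter lost in 6 of 19 alternatives.

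Of 20 cytosolic DNA sensing genes, all tested, 12 were called higher and 2 lower (6 and 7 with glomerular marker scaling), with a median log2 difference of 0.44. Over all tested genes 40.5% were called higher and 19.3% lower. The 2 lower calls were Enpp1 and Rnaseh2b, and the latter was lost in 10 of 19 alternatives, among them leaving out wild-type library 1, 3 or 4 or G799R library 1, 2, 3 or 4. Tmem173, the gene of STING, was even within groups, at 3.22 ± 0.819 FPKM in wild type and 7.99 ± 0.481 FPKM in G799R (SD, n = 5 each). The difference was 1.11 ± 0.12 (SE) in log2, and limma gave an adjusted p of 2.7e-05. Samhd1, a nucleotide hydrolase, went from 28.7 ± 3.75 to 88.1 ± 32.5 FPKM, and Lrrfip1 rose by 0.52 on the log2 scale (-0.12 and not called after scaling). Enpp1, a hydrolase of the messenger molecule that activates STING, went from 6.80 ± 1.22 to 1.98 ± 0.786 FPKM. Its log2 difference was -1.41.

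Of 19 genes for interferons, their receptors and JAK-STAT signalling, 17 were tested, 16 were called higher and none lower (7 and 2 with glomerular marker scaling), with a median log2 difference of 0.70. Irf1, a transcription factor that binds the response element, went from 21.5 ± 2.34 to 70.7 ± 20.5 FPKM, a log2 difference of 1.63 ± 0.17 (SE) and a limma adjusted p of 2.1e-05. Stat3 (0.86), Ifnar2 (0.73) and Jak1 (0.51) also rose, and after scaling these were 0.22, 0.09 and -0.14 and not called. Ifnb1 was listed at 0 in 9 of 10 libraries, with 0.091 FPKM in G799R library 4. Ifng was likewise listed at 0 in 9 of 10, with 0.155 FPKM in G799R library 5. Transcripts of these 2 interferons were thus at or near 0 in every library. Gsdmd, Naip2, Nlrp1b, Casp1, Tmem173, Samhd1 and Irf1 were called higher with glomerular marker scaling too.

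**Figure D5:**
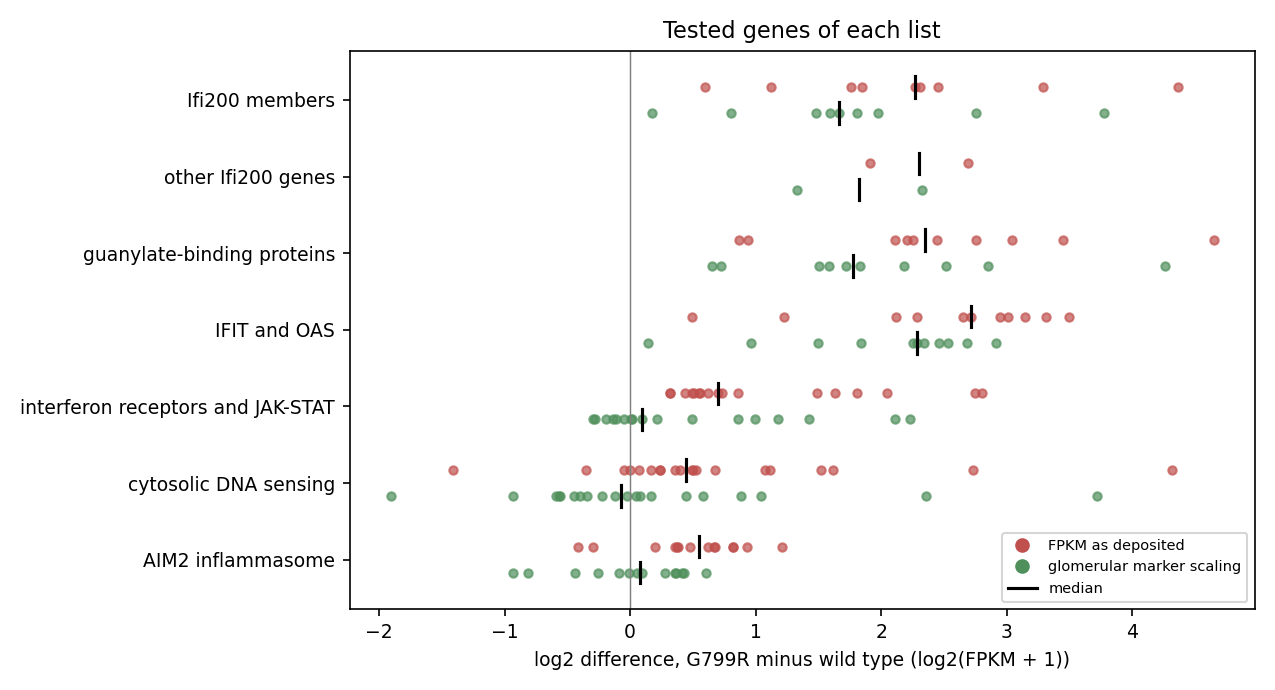
Log2 difference, G799R minus wild type, of every tested gene of the listed members, the other family genes and the lists compared with them, with FPKM as deposited (red) and after glomerular marker scaling (green); black ticks are medians. The members' median is 2.27 as deposited and 1.67 after scaling, while the medians of the DNA sensing, inflammasome and receptor lists lie near 0 after scaling.

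Several Ifi200 genes are known from macrophages, so markers of immune cells stand beside them. The 16 macrophage and monocyte markers summed to 58.2 to 136.6 FPKM in wild type and 158.6 to 267.4 FPKM in G799R. As deposited 9 of 16 were called higher, where the share of all tested genes was 40.5%. After marker scaling 5 of 16 were called higher, against 4.36%, and their median log2 difference went from 0.87 to 0.32. The mean log2(FPKM + 1) of these markers was 1.03 higher in G799R (exact two-sided permutation test, p = 0.016, 0.029 adjusted over 9 cell lists; 5 against 5 allow no p below 0.0079). This mean, without marker scaling, was also higher for podocyte (0.72), endothelial (0.69) and mesangial and smooth muscle markers (0.51). It was lower for proximal tubule (-2.8) and distal tubule and collecting duct markers (-2.0). By G799R library the sum was 224.7, 267.4, 208.6, 158.6 and 226.1 FPKM for libraries 1 to 5. Lyz2 and Mrc1 make up much of that sum, and the markers did not share 1 order. Library 4 was the lowest G799R library for 10 of 16 markers. Library 5, the lowest for every member, was the lowest for 5 of 16 (C1qa, C1qb, C1qc, Ly6c2 and Fcgr1). Ly6c2 held 10.1, 15.3, 40.3, 17.8 and 6.23 FPKM in G799R libraries 1 to 5, which is the order of Ifi204, Ifi207 and Mndal. It was picked after the values were seen, and no other of the 16 markers had that order. Neutrophil markers ranged from 14.5 to 43.6 FPKM in wild type and from 19.5 to 181.3 FPKM in G799R, lymphocyte markers from 2.96 to 4.70 and from 3.34 to 9.19 FPKM, and dendritic cell markers from 18.2 to 33.9 and from 36.4 to 46.7 FPKM. The highest neutrophil and lymphocyte sums were both those of G799R library 5. The other G799R libraries held 19.5 to 43.0 FPKM of neutrophil markers, within the wild-type range, and 3.34 to 4.99 FPKM of lymphocyte markers. None of the markers was at 0 in all libraries, and Mpo, Elane, Cd8a and Xcr1 were under 0.5 FPKM in all. The part of these cells in the members' differences between the groups was not tested.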

How the data were processed

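Kidney glomeruli were profiled by RNA-seq in 10 libraries, 5 wild-type and 5 Col4a3 p.G799R, grouped by their labels. The authors deposited 1 table of FPKM values for 22053 Ensembl identifiers, of which 21963 were matched to a symbol in GENCODE M21. The submitters' processing notes name RSEM, StringTie 1.3.1, HISAT2, Bowtie2 2.2.8 and fastp 0.18.0, with no role or order. The sources used here give neither build nor annotation. The labels' protocols name TRIzol for extraction and a NEBNext Ultra kit for the libraries.

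FPKM was transformed to log2(FPKM + 1), which understates changes of low genes. limma-trend (limma 3.58.1, R 4.3.3) was run on 13117 genes whose mean reached 0.5 FPKM, two-sided, with Benjamini-Hochberg adjustment over all of them and a threshold of 0.05. The test was checked on simulated data. Ratios are of mean FPKM. The members and all gene lists were chosen with earlier results of these data known. The rule for named genes took all family genes, the called neighbours up to 4, up to 4 tested genes per pathway list with the smallest p, and the 10 genes most like the members, leaving out predicted and clone names. Promoter sequences are from RefSeq (GRCm38.p6), and 12 of 13 family genes matched. Relative depth was estimated from the ratio most often seen between 2 libraries in genes under 0.3 FPKM, within 0.02 in log2.

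Alternatives were a filter of 2 FPKM or none, pseudocounts of 0.1 and 0.5, glomerular marker, median-of-ratios and quantile scaling, a replicate block, leaving out each library, and leaving out G799R libraries 3 and 4.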

Additional observations from a re-analysis of the deposited data

Results flagged for a closer look

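In 3 of 26 groups of 5 libraries (13 family genes in 2 groups) the highest library stood far from the others. The rule used flags about 1 in 20 groups of normally distributed values. FPKM values at or near 0 are not so distributed, so the share expected here is not known. Mndal held 19.4 FPKM in wild-type library 5, where the other wild-type libraries held 2.26 to 4.62 FPKM. Ifi205 held 0.261 FPKM in the same library, where the others held 0 to 0.044 FPKM. Ifi214 held 0.138 FPKM in wild-type library 1, where the others held 0 to 0.032 FPKM. Ifi205 and Ifi214 were under 0.3 FPKM in every wild-type library.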

How the results depend on the processing

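All 9 members were called higher in each alternative but 2. With a filter of 2 FPKM only 6 were tested, and all 6 were called. With glomerular marker scaling 8 were called. These counts describe members that were chosen on this contrast, and nothing is read from them. Of 144 alternative values of the members' log2 differences, none changed sign and 10 moved by more than the spread between libraries, mainly with pseudocounts of 0.1 and 0.5, which give low genes larger differences. Ifi205 went from 1.84 to 4.29 with a pseudocount of 0.1. Of the other family genes, 2 were called as reported. With median-of-ratios scaling, with glomerular marker scaling, and with G799R libraries 3 and 4 left out, 1 was called, Ifi208. Leaving out each library in turn gave 1 to 2. With glomerular marker scaling the calls fell from 16 to 9 for interferon receptors and JAK-STAT, and from 4 to 1 for genes next to the cluster. By replicate number no pairing was seen, since same-numbered libraries had correlations of -0.085 to 0.048 between their deviations. Column numbers of the deposited table pair libraries 1 and 2 of the groups in the same way, but pair wild-type library 5 with G799R library 3. Pairing by column number was not tested. With the replicate block 7388 genes were called in place of 7845, and 9 of 9 members. Depth limits Ifi205, Ifi206, Ifi213 and Ifi214 most, whose wild-type values are at or near 0.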
